A study of Mus musculus with 4 samples.

Results

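The autophagy machinery genes are the genes of the pathway that wraps cytoplasm in a membrane and delivers it to the lysosome. They were taken as a list of 46 named genes, from the kinase complex that starts autophagy to the receptors that bind cargo, and a gene was kept when it had 20 or more read counts in any library. All 46 are among the 21959 genes listed for each cell type, and 45 were kept. Atg4c was left out with 6, 3, 2 and 0 counts in PBS DCs, treated DCs, PBS T cells and treated T cells. The kept genes nearest the limit were Wdfy3, with at most 77 counts in a library, and Optn, with at most 113.

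The libraries hold RNA of dendritic cells (DCs), which present antigen to T cells, and of CD3+ T cells, both taken from MC38 tumours, a mouse colon carcinoma line grown in mice. Animals were given either PBS or the combination X-Ray+O-IMDQ, in which O-IMDQ names the agent joined to irradiation, and the cells were taken out at 72 h, counted from treatment number 2. There were 4 groups with 1 library each: PBS DCs, treated DCs, PBS T cells and treated T cells. The labels give no mouse strain or age, no number of mice per library and no gate for the DCs. With 1 library per group no replicate error could be measured, so no p-value is given and every interval covers counting error only.

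In autophagy the ULK kinase complex starts the process, and a lipid kinase built on Pik3c3 and Becn1 marks the membrane with a phosphoinositide. WIPI proteins read that lipid, ATG2 proteins carry lipid into the growing membrane and Atg9a, a scramblase, travels in the vesicles that seed it. Enzymes related to those of ubiquitin conjugation then attach LC3 and GABARAP proteins to the membrane, where receptors such as Sqstm1 bring in cargo. The mTORC1 kinase holds the pathway back when nutrients are plentiful, and the factors Tfeb and Tfe3 turn on lysosomal and autophagy genes. In DCs autophagy feeds antigen processing, and in T cells it is known for its part in survival and memory.

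The DNA before 5 of these genes carries the 7 letters TCACGTG, the form of the CACGTG box that Tfeb and its relatives are known to bind, and these stretches are shown because the 5 genes' values are given below. They come from RefSeq promoter windows of GRCm38.p6, which run from 250 bases before to 50 bases after a start, and the box is in capitals. Each is written 5′ to 3′ on the strand of its gene.
Atg7: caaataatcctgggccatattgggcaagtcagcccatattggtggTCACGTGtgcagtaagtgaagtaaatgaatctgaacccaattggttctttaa
Lamtor1: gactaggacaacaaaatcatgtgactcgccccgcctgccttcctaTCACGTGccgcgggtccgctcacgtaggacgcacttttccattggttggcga
Atg14: aaacaaaatccCACGTGActggccctgagc
Rubcn: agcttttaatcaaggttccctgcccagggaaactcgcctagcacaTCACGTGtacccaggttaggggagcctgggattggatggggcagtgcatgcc
Atg3: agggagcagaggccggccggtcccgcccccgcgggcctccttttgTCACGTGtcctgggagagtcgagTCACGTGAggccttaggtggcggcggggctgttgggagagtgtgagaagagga
The stretch of Atg7 is chr6:114670918-114671014 on the plus strand, and that of Lamtor1 is chr7:101905723-101905819 on the plus strand. The stretch of Atg14 is chr14:47568417-47568446 on the minus strand, where the box is read on the opposite strand and spans the start. The stretch of Rubcn is chr16:32868404-32868500 on the minus strand, and that of Atg3, with 2 boxes, is chr16:45158689-45158809 on the plus strand. The box begins 133 bases before the start in Atg7, 69 in Lamtor1, 1 in Atg14 and 89 in Rubcn, and 95 and 72 bases before it in Atg3. In Atg3 the second box is marked TCACGTGA, because TCACGTG also reads there on the opposite strand, beginning 71 bases before the start.

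Of the 46 genes, 39 had a window. TCACGTG on either strand was in 10.6% of the 47 windows of these genes, in 3.77% of all 32851 windows and in 5.78% of the windows of genes with 20 or more counts. The wider box CACGTG, which contains every TCACGTG, added Atg5. It was in 12.8% of the 47 windows, 7.15% of all windows and 9.58% of those of genes with 20 or more counts. The antioxidant response core TGACNNNGC was in 4 of the 39 genes, Atg13, Map1lc3b, Tax1bp1 and Ulk2. By window it was in 8.51% of the 47, 12.4% of all and 14.4% of those of genes with 20 or more counts. A match is a run of letters in the window and was not measured as a binding site.

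Total counts were 23797357, 14056428, 18649824 and 18463944 in PBS DCs, treated DCs, PBS T cells and treated T cells. In the DC libraries Cd3e was at 0, and the 5 T cell markers summed to 66.6 and 77.6 CPM (counts scaled to library size), against 8487 and 8348 in the T cell libraries. The 7 conventional DC markers were all detected in both DC libraries and summed to 49772 CPM with PBS and 6255 with treatment, most of it from H2-Ab1, while Zbtb46 went from 9 to 57 counts and Flt3 from 16 to 69. The 6 macrophage markers were all detected too and summed to 4328 and 1084 CPM. The sums in PBS and treated DCs were 260 and 368 CPM for 4 NK cell markers, 123 and 160 for 5 fibroblast markers, 22.1 and 91.7 for 4 neutrophil markers, 41.4 and 12.6 for 4 B cell markers and 41.0 and 3.20 for 3 endothelial markers. Ribosomal protein genes took 3.61% of the counts in PBS DCs and 9.74% in treated DCs, and mitochondrial genes 0.391% and 1.203%, while the T cell libraries had 8.39% and 5.71%, and 0.603% and 0.484%. The part of these cells and of RNA makeup in the ratios below was not tested, and in bulk RNA fewer cells of a type and less RNA per cell cannot be told apart.

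**Figure D1:**
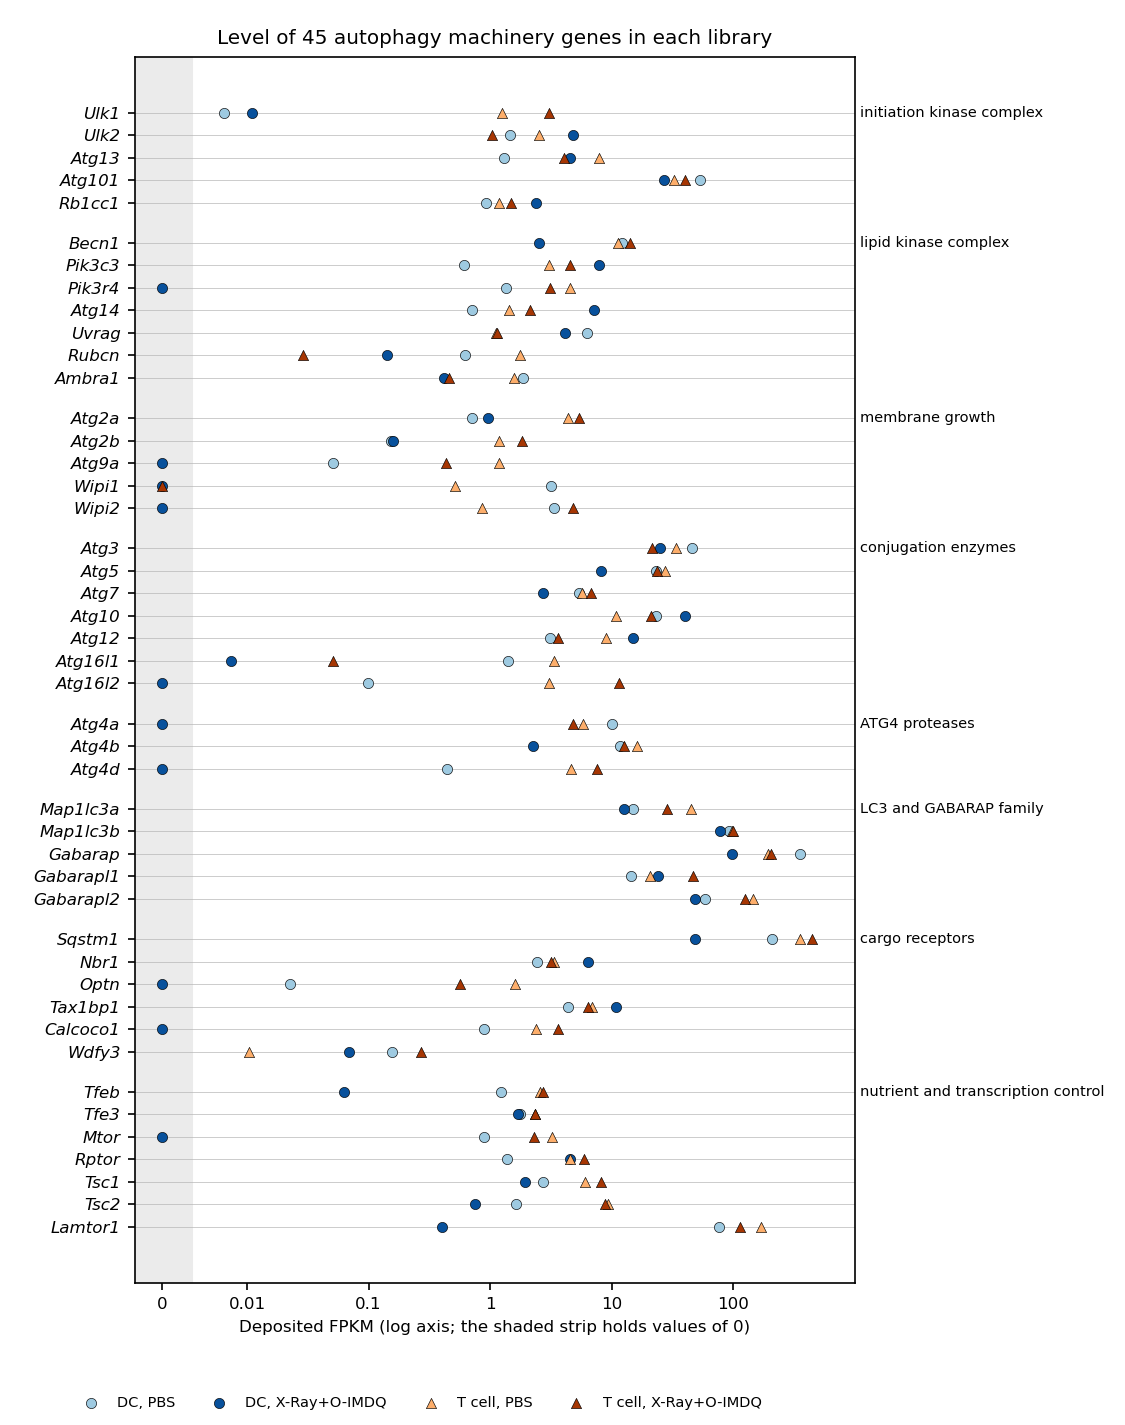
FPKM on a log axis for the 45 kept autophagy genes, grouped by role. Each symbol is 1 library, circles are DCs, triangles are T cells, dark symbols are treated, and the shaded strip holds values of 0. Dark circles in the strip are the genes listed at 0 in treated DCs, among them Wipi2, Atg4a and Mtor.

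Levels between genes are compared in FPKM, which is per gene length. The highest were Gabarap, Sqstm1, Map1lc3b, Lamtor1 and Gabarapl2 in PBS DCs, at 356, 208, 91.5, 75.8 and 58.9 FPKM, and the median of the kept genes there was 1.85 FPKM. The median was 2.24 in treated DCs and 4.54 and 4.76 in PBS and treated T cells. All listed members together took 0.342% of the counts in PBS DCs, 0.194% in treated DCs, 0.455% in PBS T cells and 0.477% in treated T cells. At least 20 counts were found for 42 of the genes in PBS DCs, 29 in treated DCs, 44 in PBS T cells and 42 in treated T cells.

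In DCs the balance of autophagy genes higher and lower with treatment depended on how genes near 0 were handled, as it did for all genes. Ratios of treated over PBS, on a log2 scale, came from scaled counts, and a gene was called when the libraries were at least 2-fold apart and the 95% counting interval excluded 0. Of 42 genes with 20 or more counts in either DC library, 9 were called higher (21.4%, against 30.2% of all genes measured) and 20 were called lower (47.6%, against 41.8%), and 13 were neither. Their median log2 ratio was -0.92, against -0.36 over 10316 genes. A gene well above the minimum in 1 library and under it in the other had to differ. Of the 29 genes with 20 or more counts in both libraries, 9 were higher and 7 lower. Over all 6976 such genes 32.9% were higher and 26.2% lower. The median of the 29 was -0.17, against 0.20 over all such genes. The shares are set beside those of all genes and nothing is read from them for the group as a whole, so the genes below are described for their own values.

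In T cells fewer of the genes were called. Of 45 genes, 5 were called higher (11.1%, against 18.3% of all genes) and 8 were called lower (17.8%, against 25.4%). The other 32 were neither, and the median log2 ratio was 0.00, against -0.07 over all genes.

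**Figure D2:**
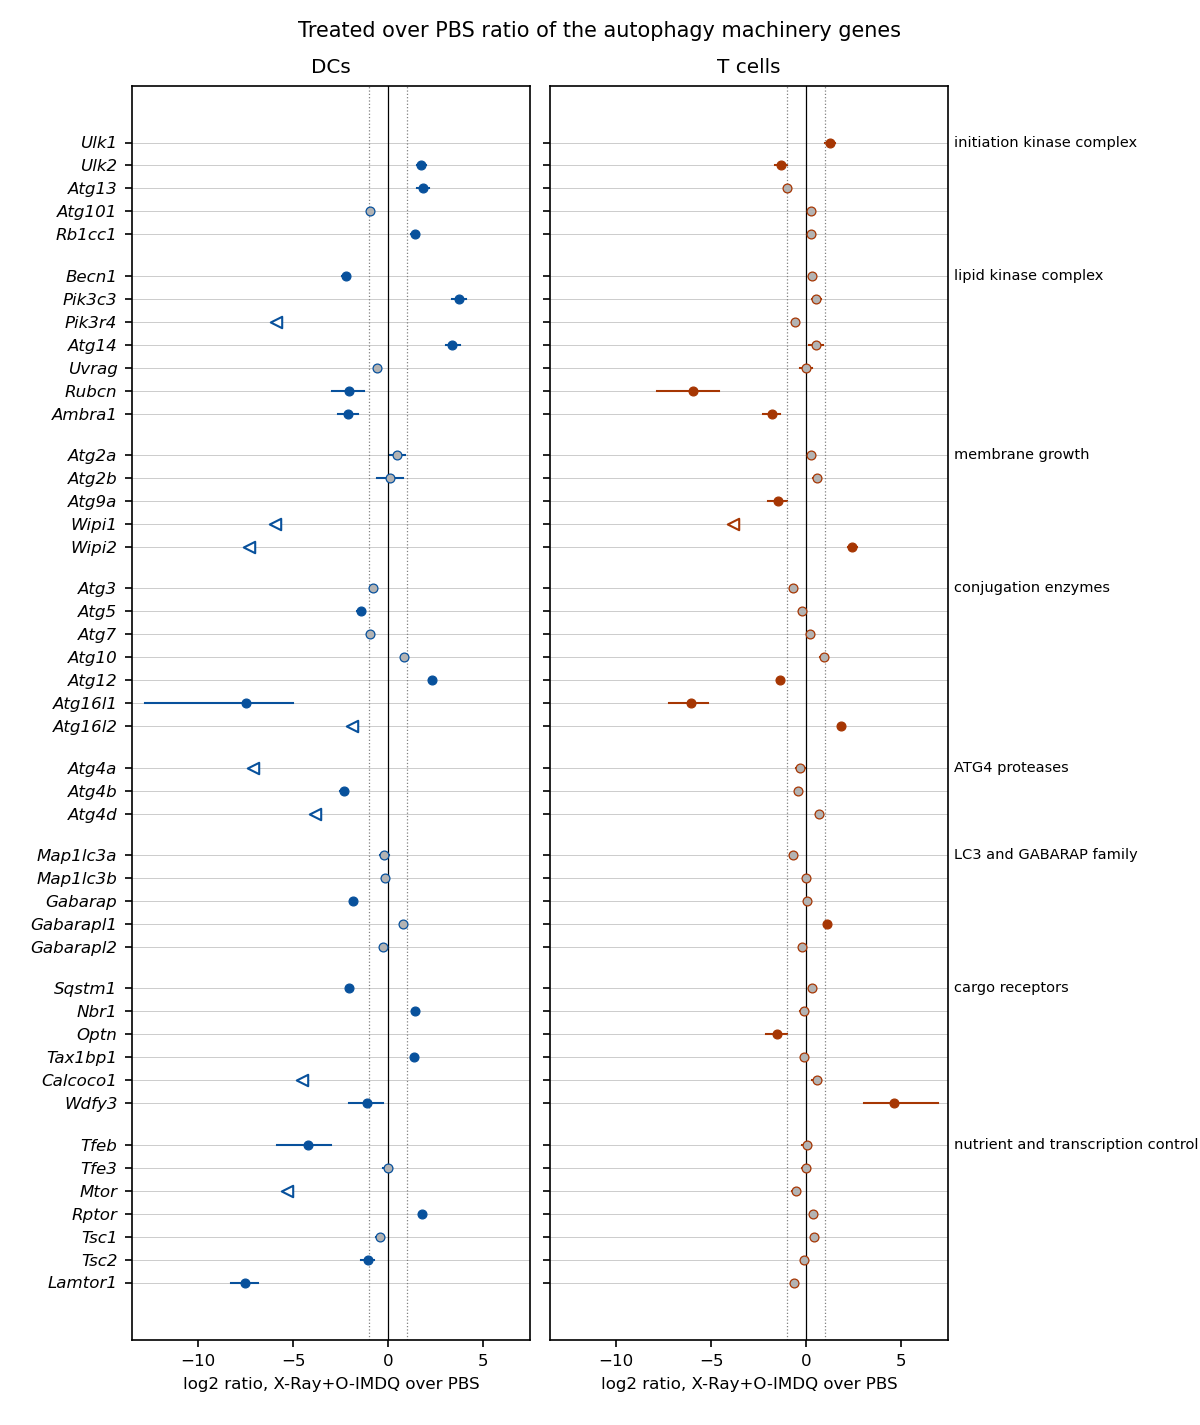
log2 ratio of treated over PBS for each autophagy gene in DCs and in T cells, by role. Filled symbols are called genes, grey ones are not called, bars are 95% counting intervals and open triangles are genes at 0 in 1 library, drawn at the 3-count floor. The DC ratios run from -7.51 for Lamtor1 to 3.75 for Pik3c3, and most T cell ratios lie near 0.

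The initiation complex was the role with the most genes higher in treated DCs, with 3 of 4 measured called higher and none lower. Over all genes 30.2% were higher and 41.8% lower, and nothing is read from so few genes for the role. Ulk2, a kinase of the complex, had 208 counts in PBS DCs and 402 in treated DCs, and 282 and 114 in PBS and treated T cells. Its log2 ratio was 1.77 (1.52 to 2.02) in DCs and -1.32 in T cells, so it was called in opposite directions. Atg13, the adaptor that the kinase phosphorylates, had 134 and 276 counts in DCs, a log2 ratio of 1.86. Rb1cc1, the scaffold also called FIP200, had 324 and 495 counts in DCs, a log2 ratio of 1.43, which with the gene length trend subtracted was 0.88 and not called. In T cells Atg13 and Rb1cc1 were not called, at -0.97 and 0.29. Atg101, which stabilises Atg13, was not called in either cell type, with 2006 and 599 counts in DCs and 971 and 1184 in T cells.

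Ulk1, the best known starter kinase of autophagy, was nearly absent from the DC libraries, with 1 count in each. It had 151 counts in PBS T cells and 367 in treated T cells, a log2 ratio of 1.27 (0.99 to 1.55). At these DC counts no treatment ratio could be given there.

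The lipid kinase complex moved apart in treated DCs. Pik3c3, the catalytic subunit also called VPS34, had 65 counts in PBS DCs and 496 in treated DCs, 13.5-fold higher (interval 10.4 to 17.7). Atg14, the subunit that directs it to the autophagosome, had 73 and 437 counts, 10.6-fold higher (8.23 to 13.7). These were the highest DC ratios among the autophagy genes. In T cells Pik3c3 had 253 and 373 counts and Atg14 had 115 and 168, and neither was called.

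Its partners were lower. Becn1, the regulatory subunit, had 2035 and 248 counts in DCs, a log2 ratio of -2.22 (-2.41 to -2.03), and 1487 and 1854 in T cells. Pik3r4, the pseudokinase that holds the complex together, is also called VPS15. It had 312 counts in PBS DCs and 0 in treated DCs, at least 47.7-fold lower, and 819 and 555 in T cells. The catalytic subunit and its scaffold thus stood on opposite sides in treated DCs, while neither was called in T cells. Uvrag, which joins the other form of the complex at endosomes, was not called in either cell type, with 1350 and 522 counts in DCs and 189 and 191 in T cells.

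Rubcn and Ambra1 were called lower in both cell types. Rubcn, which restrains the lipid kinase and takes part in LC3-associated phagocytosis, had 111 and 15 counts in DCs, a log2 ratio of -2.07, and 246 and 4 counts in T cells, a log2 ratio of -5.96 (-7.84 to -4.58). Ambra1, which links Becn1 to the cytoskeleton and to ubiquitin ligases, had 269 and 36 counts in DCs and 179 and 52 in T cells, log2 ratios of -2.08 and -1.80.

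Both WIPI genes, which act in membrane growth, were at 0 in treated DCs. Wipi2, which reads the lipid mark and recruits Atg16l1, had 842 counts in PBS DCs and 0 in treated DCs, at least 129-fold lower. It had 168 and 926 in PBS and treated T cells, 5.46-fold higher (4.63 to 6.48). Wipi1, its relative, had 334 counts in PBS DCs and 0 in treated DCs, at least 63.1-fold lower, and 42 and 0 in T cells, at least 14.1-fold lower. The WIPI genes thus shared the 0 in treated DCs but differed in T cells.

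The lipid carriers Atg2a and Atg2b were called in neither treatment comparison. Atg2a had 130 and 104 counts in DCs and 622 and 761 in T cells, and Atg2b had 49 and 30 in DCs and 298 and 458 in T cells. Atg9a had 7 and 0 counts in DCs, under the minimum, and 127 and 46 in T cells, a log2 ratio of -1.48. All 3 were low in DCs and higher in T cells.

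Among the conjugation enzymes Atg12, the ubiquitin-like protein that is joined to Atg5, was called in opposite directions. It had 569 and 1611 counts in PBS and treated DCs, a log2 ratio of 2.32 (2.18 to 2.46), and 1299 and 515 in PBS and treated T cells, a log2 ratio of -1.35 (-1.50 to -1.20). Atg5, its partner, had 1282 and 271 counts in DCs, a log2 ratio of -1.42, and 1193 and 1031 in T cells, where it was not called. With the trend of the ratio on gene length subtracted, Atg5 stood at 0.0175 in DCs, so its direction there depends on that setting.

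Atg16l1, which brings the Atg12 and Atg5 conjugate to the membrane, was among the genes furthest apart in both cell types. It had 319 counts in PBS DCs and 1 in treated DCs, a log2 ratio of -7.50 (-12.8 to -5.01), and 600 and 9 in T cells, a log2 ratio of -6.07 (-7.21 to -5.14). Atg16l2, its relative, had 20 and 0 counts in DCs, at least 2.80-fold lower. It had 485 and 1799 in T cells, 3.68-fold higher (3.32 to 4.07). Per length, Atg16l1 and Atg16l2 stood at 3.34 and 3.07 FPKM in PBS T cells and at 0.051 and 11.5 FPKM in treated T cells.

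Atg3, the enzyme that passes LC3 to the lipid, had 3399 and 1098 counts in DCs and 1993 and 1250 in T cells. Atg7, the activating enzyme, had 890 and 267 in DCs and 739 and 865 in T cells, and Atg10, which conjugates Atg12, had 937 and 958 in DCs and 344 and 663 in T cells. None of these 3 was called in either treatment comparison, and Atg10 was called higher in treated DCs, at 2.13, with the gene length trend subtracted.

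The ATG4 proteases trim LC3 before it is attached and free it later. Each of the 3 that were measured was called lower in treated DCs, as were 41.8% of all genes, Atg4c being left out. Atg4a had 724 counts in PBS DCs and 0 in treated DCs, at least 111-fold lower. Atg4d had 76 and 0, at least 11.4-fold lower. Atg4b, the most active member of the family towards LC3, had 2313 and 261 counts in DCs, a log2 ratio of -2.33 (-2.52 to -2.14). In T cells none was called: Atg4a had 323 and 266 counts, Atg4b 2509 and 1921, and Atg4d 630 and 1016. Atg4d shares 1405 exon bases with Kri1 on the opposite strand in the GENCODE M21 annotation, and no source used here says whether strand was used in counting, so its counts are uncertain. Kri1 had 254 and 467 counts in DCs, against 76 and 0 for Atg4d. In all, 10 of the genes share exon bases with a listed gene on the opposite strand. Beside Atg4d these are Atg16l2, Atg2b, Atg9a, Becn1, Lamtor1, Map1lc3b, Rubcn, Sqstm1 and Tsc2. For some the neighbour was also lower in treated DCs, with Pkd1 at 335 and 28 counts beside Tsc2, Mrnip at 148 and 0 beside Sqstm1, Ankzf1 at 349 and 6 beside Atg9a, and Lrrc51 at 27 and 0 beside Lamtor1. For the others, Gskip beside Atg2b had 1379 and 1979 counts before scaling, and Fchsd2 beside Atg16l2 had 86 and 145. Fyttd1 beside Rubcn had 478 and 358, and Zcchc14 beside Map1lc3b had 0 and 4. Becn1 shares the most, 3104 exon bases, with Cntd1, which had 0 and 0 counts in DCs. The part of such overlaps in the counts was not tested.

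**Figure D3:**
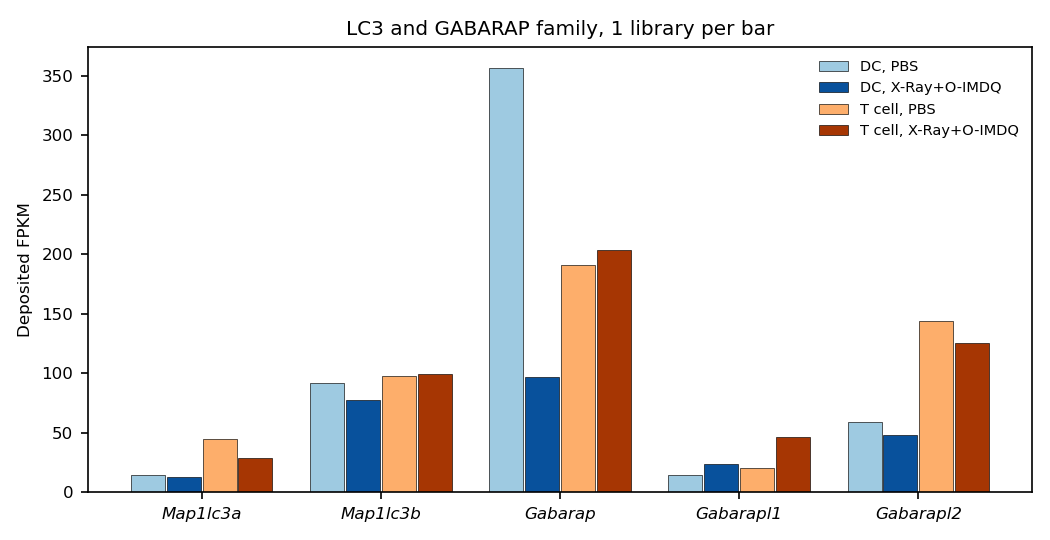
FPKM of the 5 LC3 and GABARAP genes in the 4 libraries, 1 bar per library from 0. Gabarap stands at 356 in PBS DCs and 96.7 in treated DCs, while Map1lc3b stays between 78.0 and 99.8.

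The LC3 and GABARAP family differed in its makeup between the DC libraries. Gabarap was the member called, with 15632 and 2507 counts in PBS and treated DCs, a log2 ratio of -1.82 (-1.88 to -1.76), and 6572 and 6925 in T cells. Its FPKM values were 356, 96.7, 191 and 203 in PBS DCs, treated DCs, PBS T cells and treated T cells, so it took 66.5% of the family's summed FPKM in PBS DCs and 37.35%, 38.3% and 40.4% in the others. The share of Gabarapl1 was 2.66% in PBS DCs and 9.18% in treated DCs. The summed FPKM was 536 and 259 in DCs and 498 and 503 in T cells. Treated DCs thus had the lowest sum, and PBS DCs the highest share of Gabarap. With the gene length trend subtracted the DC ratio of Gabarap was -0.47 and was not called.

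Map1lc3b, the LC3 most used as a marker of autophagosomes, had 16375 and 8239 counts in DCs and 13728 and 13853 in T cells, log2 ratios of -0.17 and 0.00. Gabarapl1 was the member called in T cells, with 779 and 1734 counts there, 2.21-fold higher (2.03 to 2.40), and it had 684 and 673 in DCs, a log2 ratio of 0.80 (0.64 to 0.95). Map1lc3a had 418 and 209 counts in DCs and 988 and 622 in T cells. Gabarapl2 had 3258 and 1565 in DCs and 6233 and 5371 in T cells. Neither of these was called in either cell type. Once the gene length trend was subtracted, Gabarapl1 and Gabarapl2 were called higher in treated DCs, at 2.20 and 1.204.

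The cargo receptors also split in DCs. Sqstm1, the ubiquitin-binding receptor also called p62, had 16579 counts in PBS DCs and 2296 in treated DCs, a log2 ratio of -2.03 (-2.10 to -1.97), and 21903 and 27701 in T cells, a log2 ratio of 0.33. Nbr1, a receptor related to it, had 397 and 610 counts in DCs, a log2 ratio of 1.44 (1.25 to 1.62), and 433 and 403 in T cells. Tax1bp1, which binds ubiquitin and dampens inflammatory signalling, had 1030 and 1530 counts in DCs, a log2 ratio of 1.39 (1.28 to 1.51), and 1272 and 1184 in T cells. In the DC pair Nbr1 and Tax1bp1 were higher with treatment and Sqstm1 was lower, and none of the 3 was called in T cells. With the gene length trend subtracted Sqstm1 was at -0.95 in DCs and was no longer called.

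Calcoco1, a receptor for the endoplasmic reticulum, had 121 and 0 counts in DCs, at least 18.3-fold lower, and 254 and 384 in T cells. Optn, the receptor also known from mitophagy, had 2 and 0 counts in DCs and 113 and 39 in T cells, a log2 ratio of -1.55. Wdfy3, a scaffold for aggregates, had 57 and 15 counts in DCs, a log2 ratio of -1.11, and 3 and 77 in T cells, a log2 ratio of 4.67 (3.07 to 6.98). Wdfy3 was thus called in opposite directions, on low counts.

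Of the nutrient and transcription genes, Lamtor1 had the lowest DC ratio. Lamtor1, which anchors the Ragulator complex and with it mTORC1 on the lysosome, had 5803 counts in PBS DCs and 18 in treated DCs, 183-fold lower (116 to 309), and 10101 and 6687 in T cells, a log2 ratio of -0.61. At an equal scaled level the treated DC library would have held 3289 counts of it. Mtor, the kinase itself, had 213 and 0 counts in DCs, at least 32.4-fold lower, and 609 and 425 in T cells. Rptor, the subunit that defines mTORC1, had 438 and 863 counts in DCs, a log2 ratio of 1.80 (1.63 to 1.97), and 1141 and 1477 in T cells. Kinase and partner subunit thus lay on opposite sides in the DC pair.

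Tfeb had 166 and 5 counts in DCs, a log2 ratio of -4.23 (-5.88 to -2.98), and 271 and 283 in T cells. Tfe3, its relative, had 390 and 220 counts in DCs and 400 and 401 in T cells, log2 ratios of -0.01 in each. Tsc2, which restrains mTORC1, had 372 and 101 counts in DCs, a log2 ratio of -1.06, and 1666 and 1559 in T cells. Its partner Tsc1 had 771 and 324 in DCs and 1325 and 1793 in T cells and was not called. Tfeb and Tsc2 were the lower ones of these 4 genes in treated DCs, and none of the 4 was called in T cells.

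The 5 genes with TCACGTG in their window did not share a direction in the DC pair. Atg14 was called higher, Rubcn and Lamtor1 were called lower, and Atg3 and Atg7 were not called, at log2 ratios of -0.81 and -0.92. In T cells Rubcn alone of the 5 was called.

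Genes at 0 in treated DCs were not particular to autophagy. Of 42 autophagy genes with 20 or more counts in PBS DCs, 8 were at 0 in treated DCs (19%), and so were 1525 of 9501 genes of any kind (16.1%). With 100 or more counts in PBS DCs the numbers were 6 of 36 (16.7%) and 942 of 7856 (12%). In the reverse direction 0 of 29 autophagy genes were at 0 in PBS DCs, against 4.97% of all genes. In T cells Wipi1 was the only one of 44 at 0 in the treated library (2.27%, against 8.4% of all genes).

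**Figure D4:**
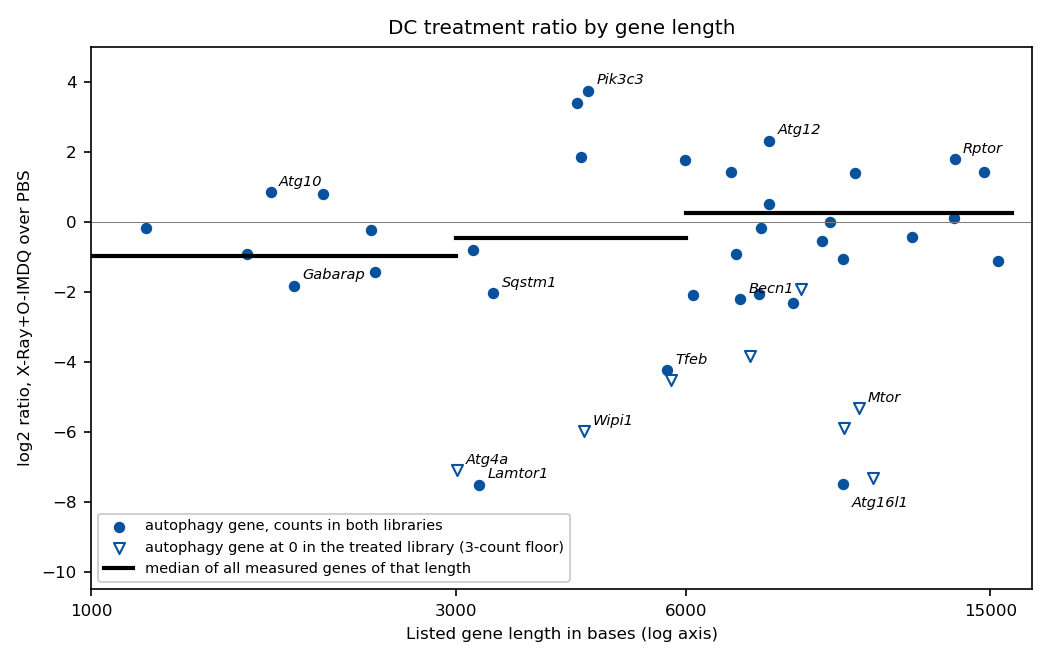
DC log2 ratio of treated over PBS against listed gene length on a log axis, 1 point per autophagy gene, with black bars for the median of all measured genes in 3 length classes. The black bars rise from -0.96 to 0.24, and the autophagy genes of every length class lie on both sides of 0.

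The DC ratio moved with gene length across the whole transcriptome, with medians of -0.96 for genes up to 3000 bases, -0.45 for longer ones up to 6000 and 0.24 over 6000. Autophagy genes are long, with a median length of 7016.5 bases against 4438 for all genes measured. Their medians in the same classes were -0.24 (7 genes), -2.03 (11 genes) and -0.99 (24 genes). Of the 7, 11 and 24 genes, 0, 4 and 5 were called higher and 2, 6 and 12 lower, and these medians include genes that entered through 1 library. In T cells the medians of all genes in these classes lay between -0.17 and -0.02. Subtracting the length trend gave 11 genes higher and 17 lower in treated DCs, against 38% and 34.6% of all genes. It ended the calls of Sqstm1, Gabarap, Rb1cc1 and Atg5 and added Atg10, Gabarapl1 and Gabarapl2 as higher. The part of length in the DC ratios was not tested beyond these values.

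The treatment calls of the cell types were set side by side. Of 42 genes measured in both comparisons, 5 were called in opposite directions (11.9%, against 14.1% of 9388 genes) and 4 were lower in both (9.52%, against 9.35%). None was higher in both, against 508 of the 9388 genes. Ulk2 and Atg12 were higher in treated DCs and lower in treated T cells, and Wipi2, Atg16l2 and Wdfy3 were the reverse. Rubcn, Ambra1, Wipi1 and Atg16l1 were lower in both. A further 13 were lower in DCs and not called in T cells, against 2334 of the 9388 genes. Another 7 were higher in DCs and not called in T cells, against 1537. Gabarapl1 was called in T cells only. The other 12 were called in neither, for which no count over all genes was made. The DC calls of Atg16l2 and Wdfy3 were lost on a log2(CPM + 1) scale. No test of the difference over samples was possible.

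**Figure D5:**
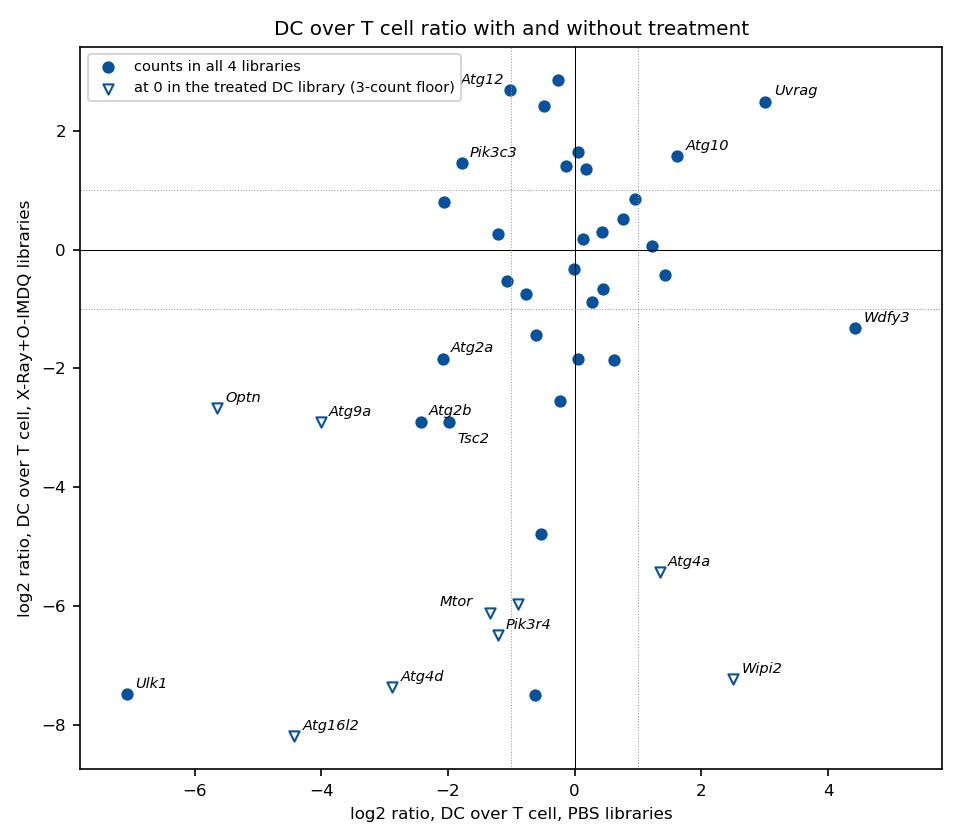
log2 ratio of DCs over T cells in the PBS pair (x axis) and in the treated pair (y axis), 1 point per autophagy gene, with dotted lines at 2-fold and open triangles for genes at 0 in treated DCs. Uvrag and Atg10 lie at the upper right, and the genes at the lower left, such as Ulk1 and Atg16l2, were lower in DCs in both pairs.

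The comparison of DCs with T cells asks which autophagy genes differ by cell type in each pair. Of 45 genes, 8 were called higher in PBS DCs (17.8%, against 25.6% of all genes) and 15 were called lower (33.3%, against 34.8%). In the treated pair 9 of 42 were called higher in DCs (21.4%, against 31.1%) and 20 were called lower (47.6%, against 43.4%). With 20 or more counts required in both libraries of the treated pair, 9 were higher and 7 lower. Over all such genes 33.9% were higher and 26.7% lower. The median of the autophagy genes was then 0.17, against 0.20 over all such genes. Subtracting the gene length trend gave 13 higher and 11 lower in the PBS pair, against 30.8% and 29.6% of all genes. In the treated pair it gave 12 higher and 20 lower, against 40.1% and 36.3%. The split also moved with the scaling. With total-count scaling, which moved the median of all genes from -0.17 to -0.70 in the PBS pair and from -0.43 to -1.07 in the treated pair, 5 were higher and 23 lower without treatment and 4 were higher and 25 lower with it. The shares of all genes were then 19.1% and 43.8% without treatment and 24.4% and 50.9% with it.

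Of the 42 genes measured in both pairs, 2 were higher in DCs in both (4.76%, against 11.9% of all genes) and 10 were higher in T cells in both (23.8%, against 19.3%). Uvrag was higher in DCs by a log2 ratio of 3.01 (2.79 to 3.24) with PBS and 2.49 (2.25 to 2.74) with treatment, and Atg10 by 1.62 and 1.57. Under total-count scaling Uvrag stayed called in both pairs, at 2.48 and 1.84, while Atg10 stood at 1.09 and 0.92 and was called in the PBS pair only.

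The genes higher in T cells came from several roles. Ulk1 had a log2 ratio of DCs over T cells of -7.06 (-12.4 to -4.56) with PBS and -7.48 (-12.8 to -4.99) with treatment, each on 1 DC count. Atg16l2 was at -4.42 with PBS and at least 237-fold lower in treated DCs, and Atg4d was at -2.87 and at least 134-fold lower. The lipid carriers followed, with Atg2a at -2.08 and -1.83 and Atg2b at -2.43 and -2.89. Atg9a was 16.1-fold lower with PBS and at least 5.83-fold lower with treatment. Optn was at -5.64 (-8.71 to -3.76) with PBS and at least 4.90-fold lower with treatment. In the mTORC1 branch Tsc2 was at -1.99 and -2.91, and Mtor at -1.34 and at least 55.8-fold lower. Pik3r4 was at -1.22 and at least 73.0-fold lower. With the gene length trend subtracted Mtor and Pik3r4 were no longer called in the PBS pair, at -0.53 and -0.43.

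The order of the cell types was opposite in the pairs for 5 genes (11.9%, against 12.9% of 9984 genes). Atg12 was at -1.01 with PBS and 2.68 with treatment, and Pik3c3 at -1.78 and 1.45. Wipi2 was at 2.50 with PBS and at least 122-fold lower in treated DCs, and Atg4a at 1.34 and at least 34.8-fold lower. Wdfy3 was at 4.42 (2.80 to 6.74) and -1.32. Of these 5, Wipi2 alone kept both calls under every alternative of scaling, pseudocount and gene length. Atg12 was not called in the PBS pair with DESeq2 size factors (-0.97), the gene length trend subtracted (-0.36) or a pseudocount (-0.99). Total-count scaling ended the PBS call of Atg4a (0.81) and the treated call of Pik3c3 (0.80), and the pseudocount ended the treated call of Wdfy3 (-0.89).

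The neighbouring steps of the pathway were read from 5 lists of further genes, whose counts stand beside the shares of all genes, 30.2% higher and 41.8% lower in DCs and 18.3% and 25.4% in T cells, and the medians of all genes, -0.36 and -0.07. Of 25 measured nutrient sensing genes of 31 listed, 4 were called higher (16%) and 14 lower (56%) in treated DCs, with a median log2 ratio of -1.30. Rragc, a GTPase that recruits mTORC1, was at -3.72, Lamtor4 and Lamtor3, subunits of Ragulator beside Lamtor1, were at -1.81 and -1.26, and Stk11, the kinase upstream of AMPK, was at 1.90. In T cells 3 of 26 were higher (11.5%) and 10 lower (38.5%), and the median was -0.38. Called genes included Lamtor4 at -1.09, Mlst8, an mTOR partner, at -1.15, Prkab1, an AMPK subunit, at -1.13, and Nprl3, of the complex that restrains mTORC1, at 1.10.

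Of 16 genes of fusion with the lysosome, 1 was higher (6.25%, against 30.2% of all genes) and 8 were lower (50%, against 41.8%) in treated DCs, and the median log2 ratio was -1.04. Rab7, the GTPase of late endosomes, was at -2.00, Lamp1, a lysosomal membrane protein, at -2.23, and the tethering subunits Vps33a and Vps11 at -1.80 and -1.58. In T cells 2 were higher and 2 lower (12.5% each, against 18.3% and 25.4%), and the median was -0.01. The SNARE Snap29 was at 1.93 and Vps33a at 1.36, while the SNAREs Stx17 and Stx7 were at -3.99 and -1.42.

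Of 16 measured mitophagy and organelle receptors, 3 were higher (18.8%, against 30.2% of all genes) and 8 lower (50%, against 41.8%) in treated DCs, and the median log2 ratio was -1.003. Bnip3 and Bnip3l, mitochondrial receptors induced by low oxygen, were at -2.85 and -2.71, Phb2, an inner membrane receptor, was at -1.01 and Sec62, a receptor of the endoplasmic reticulum, was 15.9-fold higher. In T cells 1 of 15 was higher, Rtn3 at 1.22, and 1 was lower, Retreg1 at -3.33, both receptors of the endoplasmic reticulum. Each is 6.67% of the list, against 18.3% and 25.4% of all genes, and the median was 0.20.

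Of 11 transcriptional and BCL2-type regulators, 6 were higher (54.5%, against 30.2% of all genes) and 2 lower (18.2%, against 41.8%) in treated DCs, and the median was 1.13. Atf4, a factor of the stress response, was at 1.82, Mcl1, a survival protein that binds Becn1, at 1.53, Nfe2l2, the oxidative stress factor also called NRF2, at 1.15, and Tfec, of the Tfeb family, at -1.01. In T cells 0 of 10 were higher (against 18.3%) and 4 were lower (40%, against 25.4%), and the median was -0.51. These were Zkscan3, a repressor of autophagy genes, at -1.63, Foxo1, a factor of quiescence and memory, at -1.70, Keap1, which holds NRF2 down, at -1.50, and Tfec, with 73 and 0 counts, at least 19.5-fold lower.

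Of 13 measured genes of membrane supply, 4 were higher and 4 lower in treated DCs (30.8% each, against 30.2% and 41.8% of all genes), and the median log2 ratio was 0.18. Zfyve1, which marks the site where autophagosomes form, was at 3.75, and Ei24, a protein of the endoplasmic reticulum, had 3 and 535 counts, a log2 ratio of 8.30 (6.74 to 10.6). The lipid phosphatases Mtmr3 and Mtmr14 had 433 and 2 and 283 and 2 counts, log2 ratios of -6.94 (-9.99 to -5.08) and -6.33 (-9.38 to -4.46). In T cells 1 of 14 was higher (7.14%, against 18.3%), Trp53inp1, a p53 target that binds LC3, at 1.12, and 2 were lower (14.3%, against 25.4%), Epg5, a tether of autophagosomes, at -1.53, and Tmem41b, a scramblase, at -1.32, with a median of 0.43.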

How the data were processed

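RNA of DCs and CD3+ T cells from MC38 tumours was sequenced in 4 libraries, 1 per group, with extraction, library construction and sequencing by BGI, per the labels' protocols. For the upstream work, the submitters' processing notes list R 3.3.1, DESeq2 1.24.0, RSEM 1.2.12, HISAT2 2.0.4 and build GRCm39, without assigning steps to tools. Each deposited table holds whole-number read counts per gene, and FPKM that the authors scaled to gene length and library total, per the file headers. FPKM recomputed from the counts differed by at most a relative 2.04e-07. The deposited gene lengths are in bases.

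Columns were assigned through the read file numbers that the sample descriptions carry, which differ from the replicate numbers in the titles for the PBS samples and the treated DCs. The tables hold 2 further PBS libraries, in 4 columns, that match no sample and were not used here.

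Counts were scaled with TMM (edgeR 4.0.16 in R 4.3.3) within each pair of libraries. A log2 ratio has an exact conditional binomial 95% interval, which covers counting error only, since PCR reads are not independent molecules. Genes with a symbol and 20 or more counts in either library were measured. A count of 0 was set to 3 counts, which is 0.126, 0.213, 0.161 and 0.162 CPM in PBS DCs, treated DCs, PBS T cells and treated T cells. The interval of a difference between 2 ratios uses Poisson counts on the log scale. The procedure was tested on simulated Poisson counts in which most genes were equal between the libraries. That setting has no variation between samples and no length trend, so it cannot show how the scaling and intervals hold in these libraries.

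The members and lists were chosen with earlier results of these data known. Full values are given for the LC3 and GABARAP family, the cargo receptors, genes called in a treatment comparison, genes at 0 in 1 library, and genes called alike in both cell type pairs or oppositely in the treatment comparisons. From each further list at most 4 called genes with the most counts are named per comparison. Alternatives were total-count, upper-quartile and DESeq2 1.42.0 scaling, TMM over all 4 libraries, deposited FPKM, other count minimums, a 4-fold threshold, a pseudocount and a gene length correction.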

Additional observations from a re-analysis of the deposited data

Results flagged for a closer look

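The treatment ratio went in opposite directions in the cell types for 5 autophagy genes, each called in both. The log2 ratio in DCs minus that in T cells was 3.09 (2.69 to 3.49) for Ulk2 and 3.67 (3.47 to 3.87) for Atg12, both higher in treated DCs and lower in treated T cells. It was -9.76 for Wipi2 and -3.80 for Atg16l2, each with treated DCs at 0 and set to the 3-count floor, and -5.78 (-7.63 to -3.92) for Wdfy3, which rests on 3 counts in PBS T cells. Each group is 1 library, so the difference was not tested. The DC calls of Atg16l2 and Wdfy3 were lost on a log2(CPM + 1) scale and at a 4-fold threshold. At that threshold Ulk2 lost both calls, and Atg12 and Atg16l2 lost those in T cells.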

How the results depend on the processing

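Each group is 1 library, so the ratios show these libraries and no library could be left out. No paired analysis was possible because each group has 1 library and the result comes from no test. Over single genes, 1677 of 1995 alternative values moved by less than their counting interval, 316 moved further and 2 called values changed sign. The 4-fold threshold and the other count minimums cannot change a ratio, and deposited FPKM repeats total-count scaling. The 1677 are therefore no measure of stability. Under the gene length correction alone, 95 values moved by less than the interval, 119 moved further and 2 changed sign. With the gene length trend subtracted, Atg5 changed sign in DCs (0.0175) and in the difference between the cell types (0.25). At a 4-fold threshold 3 genes were higher and 15 lower in treated DCs, against 18.6% and 31.9% of all genes. In treated T cells 2 were higher and 3 lower, against 9.07% and 16%. In DCs against T cells 4 were higher and 8 lower with PBS, against 15.4% and 23.3%. For the treated pair these were 4 and 15, against 21.7% and 33.8%. Requiring 20 counts in both libraries removes genes near 0. It left 9 genes higher and 7 lower in treated DCs, against 32.9% and 26.2% of all such genes. In treated T cells 4 were higher and 5 lower, against 15.5% and 15.4%. In DCs against T cells with treatment 9 were higher and 7 lower, against 33.9% and 26.7%. Total-count scaling and deposited FPKM each gave 5 genes higher and 23 lower in DCs with PBS, and 4 higher and 25 lower with treatment. With the gene length trend subtracted, 13 were higher and 11 lower with PBS. On a log2(CPM + 1) scale Tsc2, Wdfy3 and Atg16l2 were no longer called in DCs. With upper-quartile scaling Atg13 was also lower in treated T cells. The causes were not tested. A count of 0 was set to 3 counts for the log2 ratios. Folds of genes at 0, given as at least a value, are bounds of the 95% counting interval.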
